A study of Mus musculus with 12 samples.

Results

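The genes described here are 10 UDP-glucuronosyltransferase (UGT) genes of mouse liver: Ugt2a3, Ugt2b1, Ugt2b5, Ugt2b34, Ugt2b35, Ugt2b36, Ugt2b37 and Ugt2b38 of the UGT2 family, and Ugt3a1 and Ugt3a2 of the UGT3 family. They were taken by gene name from the array annotation, and all 10 were present, with 12 probes, among 26286 genes that could be tested. Every one of the 12 probes was well above background on 12 of 12 arrays, and none was saturated or flagged.

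UGT enzymes sit in the membrane of the endoplasmic reticulum and join a sugar from a UDP-sugar to a lipophilic compound, which makes it soluble enough to leave the cell in bile or urine. UGT2B enzymes use UDP-glucuronic acid and act on steroids, bile acids and many drugs, and UGT2A3 is a related enzyme with bile acid substrates. UGT3 enzymes are the odd branch of the family, since they use other UDP-sugars (UDP-N-acetylglucosamine for UGT3A1, UDP-glucose and UDP-xylose for UGT3A2). Hepatocytes are the main source of UGT2B transcripts, and nuclear receptors are known regulators of these genes.

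The study crossed tissue with genotype in 4 groups of 3 single-colour Agilent arrays. All samples came from male 129/SV/B6 mice given diethylnitrosamine (DEN), a liver carcinogen, at 50 mg/kg of body weight when 2 weeks old. Poly(IC) was given 8 months after DEN and tissue was taken 1 week later, and every group had undergone irradiation with bone marrow transplantation 2 months earlier. The groups were non-cancerous liver without Cre (Mxcre-, called wild-type liver below), non-cancerous liver with Cre (Mxcre+, deleted liver), hepatocellular carcinoma (HCC) without Cre (wild-type HCC) and HCC with Cre (deleted HCC). Mx-Cre is a recombinase that poly(IC) switches on through interferon in liver, blood and other cells, and here it deletes survivin, the product of Birc5, so poly(IC) and transplanted marrow were common to all groups. Since no label ties an array to its own animal, p-values measure the spread between these samples only, which may be technical.

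Levels are log2 processed signals with the 75th percentile of each array set to 0. The 4 arrays of slide 1, which hold replicate 1 of each group, had that percentile at 1283 to 1958 signal units, and the 8 of slide 2 at 3639 to 4243. All 10 hepatocyte markers were well above background on all 12 arrays, with a mean level between 5.26 and 5.64. The targeted gene, Birc5, by the brightest of its 3 probes, read 0.40, 0.63, 0.70 and 1.64 on the wild-type arrays of slide 2 and -0.21, -1.19, 0.05 and -0.21 on the deleted ones, which do not overlap. On slide 1 it read 2.67 in wild-type liver, 2.29 on the array labelled deleted liver, 0.64 on the array labelled wild-type HCC and -0.09 in deleted HCC. The arrays labelled deleted liver replicate 1 and wild-type HCC replicate 1 are in doubt, because in the deposited value table each of these columns matches the scanner file of the other (r = 1, against 0.964 and 0.970 for its own). The values below follow the labels of the scanner files, and results that rest on these arrays are also given with the labels exchanged and without both arrays.

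The promoters of 9 of the 10 genes were found in RefSeq (GRCm38.p6), and Ugt3a2 had no entry. Over the 250 bases before the start, the promoters of Ugt2b37 and Ugt2b38 were 84.8% identical, and Ugt2b5 was 81.5% identical to Ugt2b38 and 72.6% to Ugt2b37. Ugt2b5, Ugt2b37 and Ugt2b38 thus had the 3 promoters most alike, and their transcripts were not compared. The 50 bases before each annotated start are shown because they show how alike these promoters are. The longest run common to all 3 windows, of 27 bases, is in capitals.
Ugt2b5, chr5:87140341-87140390, minus strand: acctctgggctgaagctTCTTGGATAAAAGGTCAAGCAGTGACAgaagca
Ugt2b37, chr5:87254789-87254838, minus strand: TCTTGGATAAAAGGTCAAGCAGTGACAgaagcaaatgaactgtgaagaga
Ugt2b38, chr5:87424204-87424253, minus strand: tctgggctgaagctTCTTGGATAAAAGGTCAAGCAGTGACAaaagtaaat

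The common run begins 33 bases before the annotated start in Ugt2b5, 50 in Ugt2b37 and 36 in Ugt2b38, so the annotated starts lie at different distances from it. The 250 bases before each start were also searched for motifs on both strands, and the shares for comparison are of 27025 mouse promoters searched in the same way. The C/EBP site TTGCNNAA was found without mismatch in 2 of 9 (Ugt2b5 and Ugt2b36; 9.55% of all promoters), and a direct repeat read by HNF4, AGGTCANAGGTCA with up to 2 mismatches, in 1 of 9 (Ugt2b36; 3.18% of all). A match is a description of these letters and does not show that a factor binds there. The antioxidant element TGACNNNGC (10.1% of all) and the xenobiotic element GCGTG (28.2% of all) were found in 0 of 9, which says only that these letters are not in these windows.

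Likeness of sequence also matters for what a probe reads. The probes of Ugt2b5 and Ugt2b37 share 46 of 55 bases where they overlap, and in the 30 bases shown next 28 are the same, with the differing bases in capitals.
Ugt2b5 probe, from base 6 of the probe: aactttcagcctcattctTatttatgaAcc
Ugt2b37 probe, from base 11 of the probe: aactttcagcctcattctAatttatgaGcc
The probe annotated to Ugt2b36 lists a transcript of Ugt2b37 as well, so its signal may come from either gene. It is shown whole because all Ugt2b36 values rest on it.
Ugt2b36 probe: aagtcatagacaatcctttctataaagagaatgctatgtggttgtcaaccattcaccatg
Signals of Ugt2b5, Ugt2b36 and Ugt2b37 are therefore uncertain as measures of a single gene. On the mm9 assembly used by the array annotation, the UGT2 probes lay on chromosome 5 between 87318849 (Ugt2b34) and 87839404 (Ugt2b38), and the UGT3 probes on chromosome 15 between 9244664 (Ugt3a1) and 9300262 (Ugt3a2). The Ugt2b36 probe spans 14459 bases of genome and the second Ugt3a2 probe 10293, so both cross an intron.

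**Figure D1:**
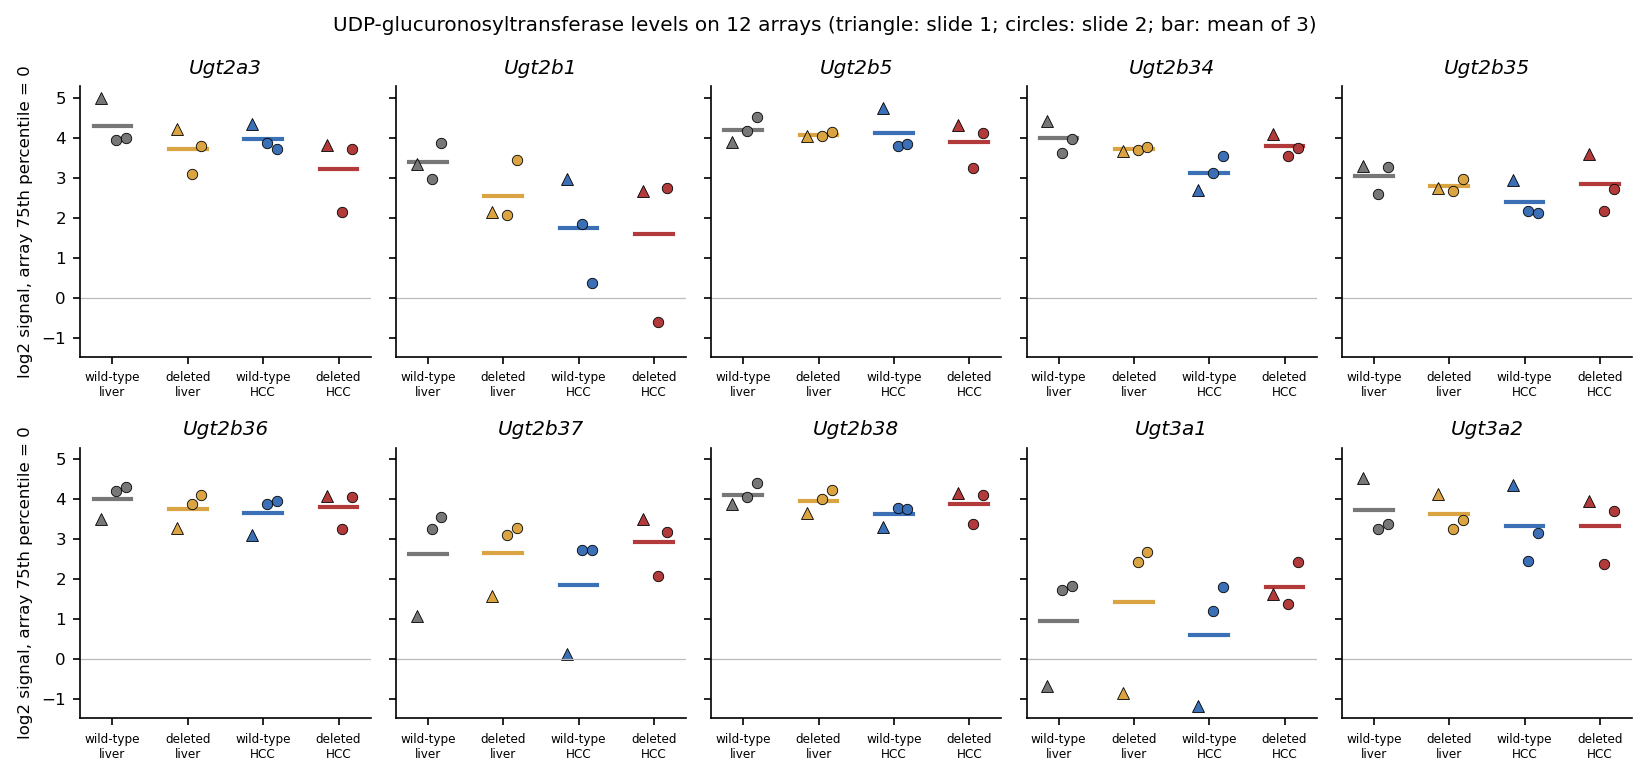
Level of each of the 10 UGT genes on 12 arrays, with the 4 groups on the horizontal axis and log2 processed signal relative to the array's 75th percentile on the vertical axis; triangles are the slide 1 arrays (replicate 1), circles the slide 2 arrays (replicates 2 and 3), and bars the mean of 3 arrays as labelled. Ugt2b34 and Ugt2b38 are lower on all 3 wild-type HCC arrays than on all 3 wild-type liver arrays, and Ugt2b37 and Ugt3a1 are low on slide 1 except in deleted HCC.

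The first comparison asks how UGT transcripts of a tumour with survivin intact differ from those of the surrounding liver. All 10 genes had a lower mean in wild-type HCC than in wild-type liver, by -0.07 (Ugt2b5) to -1.66 (Ugt2b1) on the log2 scale, with a median of -0.45 against 0.05 over all genes. None passed at an adjusted p of 0.05 (limma with slide as a block, Benjamini-Hochberg over 26286 genes), where 0% of all genes passed. At an unadjusted p under 0.05, 1 of 10 passed (Ugt2b34), against 6.06% of all genes, a share too near the background to count as a result about these genes. Direction was more uniform than size: 29 of 30 differences between same-numbered arrays were below 0, against 47.1% of such differences over all genes. All genes but Ugt2b5, 9 of 10, were lower in all 3 same-numbered pairs, against 16.8% of all genes. The 10 genes share these 3 pairs of arrays and several follow each other across arrays, so the counts are not of independent repeats. On slide 2 the pairs rest on the replicate number alone, so counts over pairs here and below depend on that pairing.

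Ugt2b34, a UGT2B enzyme of liver, read 4.42, 3.62 and 3.96 in wild-type liver and 2.70, 3.11 and 3.55 in wild-type HCC (replicates 1, 2 and 3). The highest HCC array lay below the lowest liver array, so the groups did not overlap. The fitted difference was -0.88 (SE 0.27, a 1.84-fold lower level, adjusted p = 0.745, limma), and the lowest of these HCC arrays was the array in doubt. With the labels exchanged the difference was -0.56 (SE 0.33, adjusted p = 0.489, no longer at an unadjusted p under 0.05), and without both arrays it was -0.49 (SE 0.20, adjusted p = 0.767).

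Ugt2b38 read 3.88, 4.05 and 4.41 in wild-type liver and 3.31, 3.78 and 3.76 in wild-type HCC. These groups did not overlap either, and 2 of 10 genes met that rule in the lower direction, against 2.33% of all genes. With the labels exchanged the groups of Ugt2b34 overlapped, and the 2 of 10 were Ugt2b1 and Ugt2b38, against 3.23% of all genes. For Ugt2b38 the fitted difference was -0.49 (SE 0.26, adjusted p = 0.745, limma). It was -0.38 with the labels exchanged and -0.33 without both arrays.

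Ugt2b1, a UGT2B gene whose liver level is known to be higher in males, had the largest fitted difference and the largest spread. It read 3.33, 2.96 and 3.87 in wild-type liver and 2.96, 1.85 and 0.37 in wild-type HCC, so the low tumour values were those of slide 2. The groups overlapped, and the fitted difference was -1.66 (SE 0.88, adjusted p = 0.745, limma). It was -1.93 (SE 0.81, adjusted p = 0.422) with the labels exchanged and -2.03 (SE 1.07) without both arrays.

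Ugt2b35 read 3.30, 2.58 and 3.25 in wild-type liver and 2.93, 2.16 and 2.11 in wild-type HCC. It differed by -0.64 (SE 0.29, adjusted p = 0.745, limma), and a second probe of the gene gave -0.61 (SE 0.26). Here the probes had the same direction and nearly the same size. The second probe shares 26 of 32 bases with the Ugt2b37 probe where they overlap, with a longest run of 11. It may therefore not read Ugt2b35 alone.

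None of the remaining genes reached an unadjusted p under 0.05 in this comparison. Ugt2b37 had a fitted difference of -0.77 (SE 0.63), Ugt2b36 of -0.35 (SE 0.30), Ugt2a3 of -0.33 (SE 0.35), Ugt3a2 of -0.40 (SE 0.33) and Ugt3a1 of -0.35 (SE 0.56). The same-numbered pairs of Ugt2b36 differed by -0.39, -0.33 and -0.34, and those of Ugt2b37 by -0.94, -0.54 and -0.82. As labelled, each gene was thus lower by a like amount on both slides. With the labels exchanged the slide 1 pair of Ugt2b37 turned, at 1.07 in wild-type liver and 1.57 in wild-type HCC. The fitted Ugt2b37 difference was -0.29 with the labels exchanged and -0.15 without both arrays, and that of Ugt2b36 was -0.29 and -0.14. For Ugt2b5, the exception among pairs, wild-type liver read 3.89, 4.17 and 4.53 and wild-type HCC read 4.75, 3.79 and 3.83. Only the replicate 1 pair was higher in HCC, by 0.86, and it includes an array in doubt. With the labels exchanged all 10 fitted differences stayed below 0 with a median of -0.38, 28 of 30 paired differences were below 0 and 8 of 10 genes were lower in all 3 pairs, against 17.9% of all genes. Without both arrays 9 of 10 were lower (median -0.34), Ugt3a1 being the other one at 0.08, and on slide 2 alone 10 of 10 were lower in both pairs, against 32.5% of all genes.

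**Figure D2:**
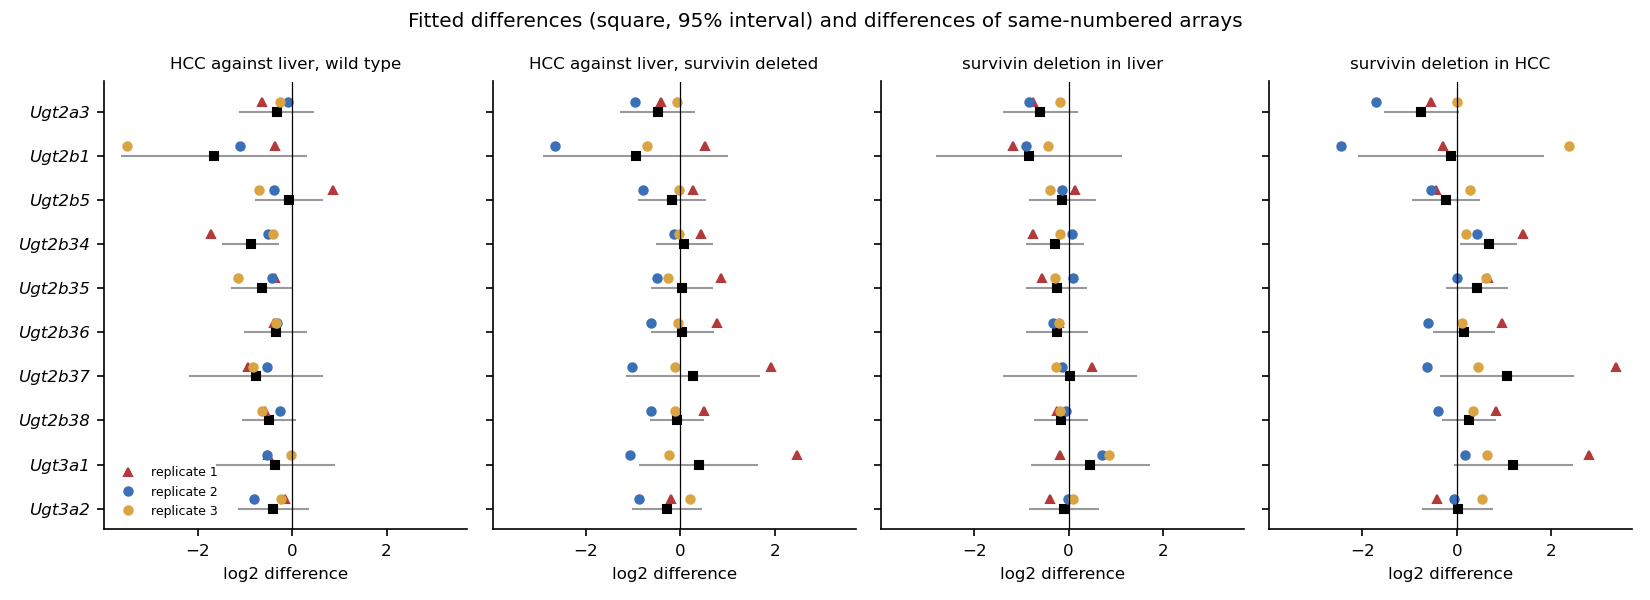
Log2 differences of the 10 UGT genes in 4 comparisons; squares are fitted differences with 95% intervals (limma, slide as a block) and the coloured points are the differences between same-numbered arrays of the 2 groups. In wild-type HCC against wild-type liver 29 of 30 points lie below 0, while in the other panels the points fall on both sides for most genes.

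With survivin deleted in both tissues the direction of tumour against liver was less uniform over all 12 arrays. In deleted HCC against deleted liver 5 of 10 genes were lower and the median difference was -0.02, against -0.05 over all genes. Of the 30 differences between same-numbered arrays 21 were below 0, against 53.4% over all genes. None passed the adjusted threshold (0% of all genes) or an unadjusted p under 0.05 (4.49% of all genes) by limma. Only Ugt2a3 was lower in all 3 same-numbered pairs, against 17% of all genes, with a fitted difference of -0.48 (SE 0.35). In the replicate 1 pair 8 of 10 genes were higher in deleted HCC, Ugt2a3 and Ugt3a2 being lower, and the liver array of that pair is in doubt. Without deleted HCC replicate 1, 10 of 10 genes were lower, and without deleted HCC replicate 2 only 1 of 10 was. On slide 2 alone all 10 fitted differences were below 0 with a median of -0.39. There 19 of 20 paired differences were below 0, and 9 of 10 genes were lower in both pairs, against 27.2% of all genes. Labels exchanged, 5 of 10 were lower with a median of 0.00, and without both arrays in doubt 10 of 10 were, with a median of -0.25.

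The comparison of deleted with wild-type liver asks what survivin loss does in non-cancerous tissue, 1 week after poly(IC). The mean was lower in 8 of 10 genes with a median of -0.20, against 0.07 over all genes. With the labels exchanged 8 of 10 were lower with a median of -0.28, but without both arrays in doubt 6 of 10 were, with a median of -0.03. None passed the adjusted threshold (0% of all genes), and none reached an unadjusted p under 0.05, against 12.1% of all genes (limma). Ugt2a3, Ugt2b1, Ugt2b36 and Ugt2b38 were lower in all 3 same-numbered pairs, against 16.1% of all genes, and 23 of 30 paired differences were below 0, against 46.5%. Hepatocyte markers were also lower here, with a median of -0.28 over 10 genes, and their part in the UGT values was not tested.

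Ugt2a3 read 4.98, 3.94 and 3.98 in wild-type liver and 4.22, 3.10 and 3.79 in deleted liver. Each deleted array lay below its same-numbered partner, though the groups overlapped, the slide 1 array being the highest within each group. The fit gave a difference of -0.60 (SE 0.35, adjusted p = 0.483, limma). Ugt2b1 had a difference of -0.84 (SE 0.88), with deleted liver at 2.15, 2.05 and 3.44.

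Ugt3a1 ran the other way in this tissue. On slide 2 it read 1.72 and 1.82 in wild-type liver and 2.43 and 2.69 in deleted liver, while on slide 1 it read -0.67 and -0.85. For Ugt3a1 the fitted difference was 0.46 (SE 0.56), 0.36 with the labels exchanged and 1.14 (SE 0.56, adjusted p = 0.687) without both arrays in doubt. Leaving out that pair of arrays thus moved the value by more than its SE, but no fit called it.

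The comparison of deleted with wild-type HCC asks the same of tumour tissue. The mean was higher in 7 of 10 genes with a median of 0.20, against -0.02 over all genes. On slide 2 alone the direction turned, with 6 of 10 genes lower and a median of -0.03. None passed the adjusted threshold (0% of all genes), and Ugt2b34 alone reached an unadjusted p under 0.05, against 7.92% of all genes (limma). Ugt2b34, Ugt2b35 and Ugt3a1 were higher in all 3 same-numbered pairs, against 12% of all genes, and the same 3 genes were so with the labels exchanged and in both pairs of slide 2, against 11.3% and 36% of all genes. For Ugt2b35 this held for the brighter probe only: the second probe gave -0.06 (SE 0.26), higher in 1 of 3 pairs. This comparison shares the wild-type HCC arrays with the first, so the values for a gene in both are not independent.

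Ugt2b34 read 4.10, 3.55 and 3.75 in deleted HCC, against 2.70, 3.11 and 3.55 in wild-type HCC. The fitted difference was 0.68 (SE 0.27, adjusted p = 0.617, limma), and the paired differences were 1.40, 0.44 and 0.19. The largest of these includes the array in doubt: the difference was 0.35 (SE 0.33, adjusted p = 0.782) with the labels exchanged and 0.29 (SE 0.20, adjusted p = 0.603) without both arrays, in neither case at an unadjusted p under 0.05.

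Ugt3a1 read 1.62, 1.37 and 2.44 in deleted HCC and -1.17, 1.20 and 1.79 in wild-type HCC. Deleted HCC replicate 1 stood apart from the other 3 arrays of slide 1, which lay between -1.17 and -0.67. The fitted difference of 1.20 (SE 0.56, adjusted p = 0.639, limma) was 0.41 (SE 0.38) on slide 2 alone.

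Ugt2b37 showed the same array standing apart. It read 3.49 in deleted HCC replicate 1, against 0.13 to 1.57 on the other slide 1 arrays, and 2.09 and 3.18 in replicates 2 and 3, against 2.72 and 2.73 in wild-type HCC. The paired differences were thus 3.36, -0.64 and 0.46. The fitted difference of 1.06 (SE 0.63) became -0.09 (SE 0.35) on slide 2 alone.

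Ugt2a3 was the gene of lowest difference in tumour tissue. Deleted HCC read 3.81, 2.13 and 3.72 and wild-type HCC 4.35, 3.85 and 3.72, and the replicate 3 arrays were level. Its fitted difference was -0.75 (SE 0.35, adjusted p = 0.639, limma), and with the replicate number as a block the adjusted p was 0.647, with the unadjusted p then under 0.05. Ugt2b1 spread the most, with paired differences of -0.30, -2.45 and 2.37 around a fitted -0.13 (SE 0.88). Deleted HCC replicate 2 gave the lowest Ugt2b1 (-0.60) and Ugt2a3 (2.13) of all 12 arrays, and the lowest mean over the 10 genes, 2.30, against 2.74 to 3.71 on the others.

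The deletion differences of the tissues were then compared with each other by the interaction term. The median interaction over the 10 genes was 0.55, against -0.08 over all genes, and 8 of 10 were above 0. None passed the adjusted threshold (0% of all genes), and 1, Ugt2b34, reached an unadjusted p under 0.05, against 3.36% of all genes (limma). For Ugt2b34 the interaction was 0.97 (SE 0.38, adjusted p = 0.908), above 0 in 3 of 3 replicate numbers. Exchanging the labels cannot move this estimate, since both arrays enter the interaction with the same sign. Only its SE changed (0.47, adjusted p = 0.883, limma), so the exchange is no check on it. Without both arrays the Ugt2b34 interaction was 0.37 (SE 0.30), and the median over the 10 genes was then 0.12. A difference between the tissues in the deletion response of these genes was therefore not shown.

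For some probes the difference between slides was larger than any fitted difference between groups. Between slide 1 and slide 2 the mean within-group difference was -2.20 for Ugt3a1, -1.43 for Ugt2b37 and 1.11 for Ugt3a2, against a median absolute difference of 0.72 over all genes. The probes of a gene could disagree in this: the Ugt2b35 probes moved by 0.56 and -2.07, and those of Ugt3a2 by 1.11 and 2.76. The second Ugt3a2 probe, which crosses an intron earlier in the transcript, also gave other group differences. It read -0.96 (SE 0.41) for deletion in HCC and -0.77 (SE 0.41) for deletion in liver, where the brighter probe gave 0.02 (SE 0.33) and -0.10 (SE 0.33). The array values of that brighter probe were 4.52, 3.25 and 3.38 in wild-type liver, 4.14, 3.25 and 3.48 in deleted liver, 4.36, 2.45 and 3.15 in wild-type HCC and 3.95, 2.38 and 3.69 in deleted HCC. For Ugt3a2 the deletion difference thus depended on the probe.

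Across arrays several UGT2 genes followed each other closely. Over the 8 arrays of slide 2, Pearson's r was 0.987 for Ugt2b5 and Ugt2b37, 0.985 for Ugt2b37 and Ugt2b38, 0.976 for Ugt2b5 and Ugt2b38, and 0.959 for Ugt2b1 and Ugt2b38. The first 3 of these pairs are of the genes with the promoters most alike, named above. Among their probes only those of Ugt2b5 and Ugt2b37 are alike, and these 2 may read each other's transcripts. The longest run that the Ugt2b38 probe shares with either of them is 6 bases. Ugt2b34 with Ugt2a3 was the loosest pair, at 0.10, and the median over 45 pairs was 0.76. Over all 12 arrays with slide means removed the median was 0.54, with Ugt2b36 and Ugt2b38 closest at 0.92 and Ugt2b5 with Ugt2b37 only at 0.24. The points share arrays and their scaling, so these correlations are descriptions.

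**Figure D3:**
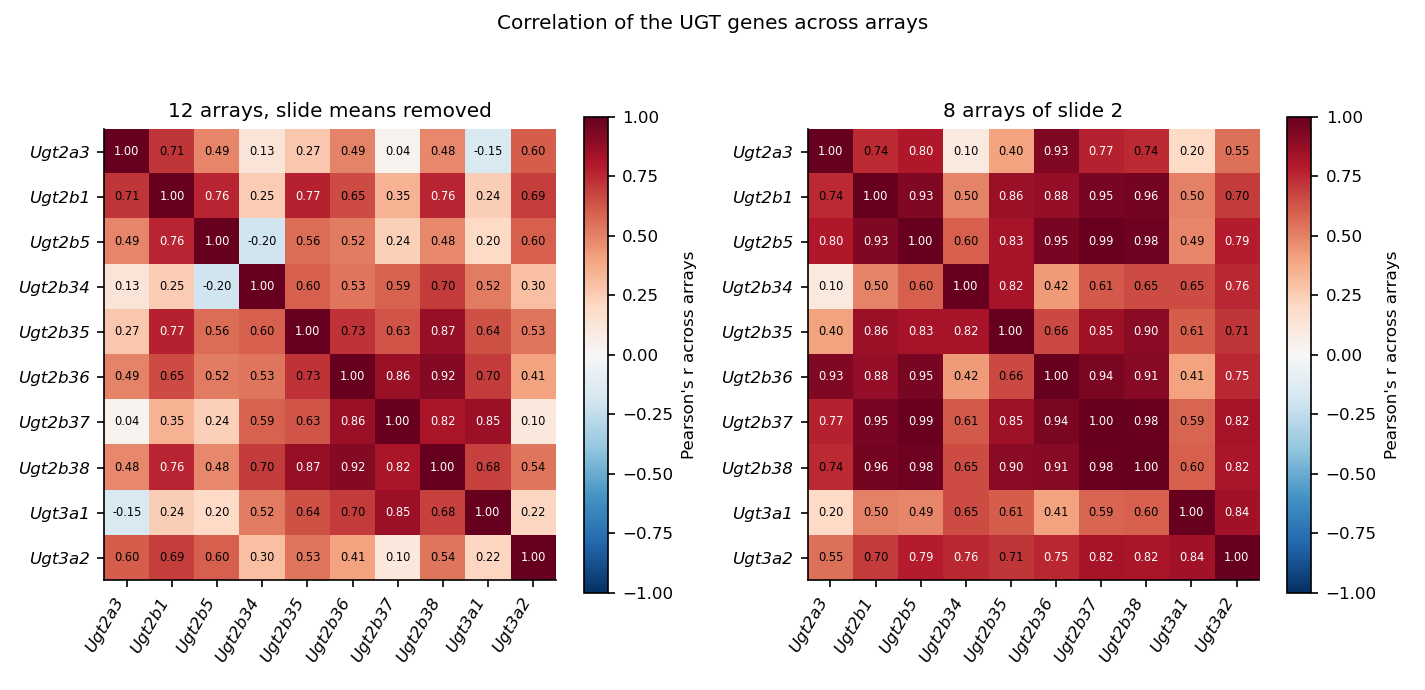
Pearson's r between each pair of the 10 UGT genes across arrays, after removing slide means over 12 arrays (left) and over the 8 arrays of slide 2 (right); colour and printed value give r. On slide 2 the block of Ugt2b1, Ugt2b5, Ugt2b36, Ugt2b37 and Ugt2b38 has r of 0.876 or more, and Ugt2b5 with Ugt2b37 has 0.24 in the left panel and 0.987 in the right.

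For each gene the transcripts most like it over 12 arrays, after removing slide means, were sought among 14839 named genes. Ugt2b1 was closest to Vipr1 (r = 0.953), Slco1a1 (0.946), an organic anion transporter of the hepatocyte's blood side, and Colec10 (0.940). Ugt2a3 was closest to Bbox1 (0.985), an enzyme of carnitine synthesis, then Tcea3. Ugt2b34 was closest to Cox5a (0.944), a respiratory chain subunit, then Ahcyl1 and Mrpl45, and Ugt2b37 to Ndufs5 (0.970), also of the respiratory chain. Ugt2b36 and Ugt2b38 had Plxnc1 in common among their closest 3, at 0.934 and 0.936. Ugt3a2 was closest to Mup2 (0.960), a major urinary protein gene, Ugt3a1 to Tapt1 (0.962), Ugt2b5 to Zfp157 (0.917) and Ugt2b35 to Txn2 (0.954).

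Of 12 other UGT genes looked up, 5 had a probe under that name, and 4 were measured: Ugt1a6a and Ugt1a6b, which conjugate small phenols, Ugt1a10, and Ugt2a1, an enzyme known from olfactory tissue. Ugt8a was well above background on 0 arrays. All 4 were lower in wild-type HCC than in wild-type liver, with a median of -0.88, and none passed the adjusted threshold. Ugt1a6a read 0.60, 0.49 and 0.07 in wild-type liver and -0.08, -0.22 and -0.62 in wild-type HCC. Its groups did not overlap, as for 2.33% of all genes in that direction, and differed by -0.70 (SE 0.25, adjusted p = 0.745, limma). Ugt1a10 differed by -1.30 (SE 0.49), Ugt1a6b by -0.40 (SE 0.16) and Ugt2a1 by -1.07 (SE 0.66). For deletion in HCC the differences were 0.56 (SE 0.25) for Ugt1a6a, 0.08 (SE 0.16) for Ugt1a6b, -0.97 (SE 0.49) for Ugt1a10 and -1.32 (SE 0.66) for Ugt2a1, with a median of -0.45. For deletion in liver they were -0.09, -0.23, -1.37 and -1.06 in the same order, and none passed the adjusted threshold. A second Ugt1a6b probe read 2.73, 0.41 and 0.15 in wild-type HCC and 2.27, -0.34 and -0.13 in deleted HCC. It was thus lower after deletion in each pair, where the brighter probe gave 0.08. The second Ugt1a10 probe read 0.45, -2.17 and -2.29 in wild-type HCC and 0.55, -3.69 and -2.32 in deleted HCC. Ugt2a1 was well above background on 1 of 3 deleted HCC arrays and on all 3 of each other group. UGT1 transcripts share their last exons, so a probe there reads several of them. The median of the 4 in wild-type HCC was -0.998 with the labels exchanged and -0.89 without both arrays.

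The supply of the sugar was measured through 15 of 15 genes. In wild-type HCC 13 of 15 were lower, with a median of -0.23, and none passed the adjusted threshold. Ugdh, which makes UDP-glucuronic acid from UDP-glucose, read 2.71, 2.63 and 3.77 in wild-type liver and 2.10, 1.69 and 1.99 in wild-type HCC. These groups did not overlap, a rule that 2.33% of all genes met in the lower direction. The difference of Ugdh was -1.11 (SE 0.34, adjusted p = 0.745, limma), and in deleted against wild-type HCC it was 0.78 (SE 0.34, adjusted p = 0.631). Ugp2, which makes UDP-glucose, differed by -0.74 (SE 0.61, adjusted p = 0.784) in wild-type HCC, a value that rested on the array in doubt. It was 0.11 with the labels exchanged and 0.20 without both arrays, and a second Ugp2 probe gave -0.14 (SE 0.20) as labelled.

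The list also holds genes that use free glucuronate. Gulo, the last enzyme of vitamin C synthesis, was 0.97 (SE 0.25, adjusted p = 0.547, limma) higher in deleted than in wild-type HCC. It was higher in 3 of 3 pairs, against 12% of all genes. Cryl1, a gulonate dehydrogenase, was lower after deletion in 3 of 3 pairs of each tissue, with -1.28 (SE 0.39) in HCC and -1.26 (SE 0.39) in liver. Of all genes 17.4% were lower in all 3 pairs in HCC and 16.1% in liver. Rgn, the lactonase before Gulo, differed by -0.50 (SE 0.22) in wild-type HCC. In wild-type HCC the differences of Cryl1, Dcxr, Xylb, Pgm2, Slc35d1, Slc35d2, Slc35a3, Uap1, Uxs1, Gusb and Akr1a4 ran from -0.80 (Cryl1) to 0.22 (Akr1a4). None of the 15 passed the adjusted threshold in any comparison, and with the labels exchanged Ugdh kept a difference of -1.02 (SE 0.38) in wild-type HCC and Gulo one of 0.84 (SE 0.31) after deletion in HCC.

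All 8 transporters of conjugates were lower in wild-type HCC (median -0.66), and those of smallest p were Abcc2, the canalicular export pump, at -0.56 (SE 0.20), the uptake carrier Slco1b2 at -0.65 (SE 0.24) and the export pump Abcc4 at -1.67 (SE 0.68). None of the 8 passed the adjusted threshold, and Abcc4 had -0.87 (SE 0.82) with the labels exchanged. Of 13 regulators 7 were higher and 6 lower with a median of 0.00 (9 lower with the labels exchanged); Nr1i3, the receptor CAR, had -0.95 (SE 0.34, adjusted p = 0.745).

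In wild-type HCC against liver, receptor target genes had the lowest median of these lists. All 7 measured of 8 were lower in wild-type HCC, with a median of -1.80, and none passed the adjusted threshold. At an unadjusted p under 0.05 were 6 of 7 (limma), against 6.06% of all genes in either direction. Cyp3a11, a target of PXR and CAR, had -1.09 (SE 0.18, adjusted p = 0.745), and Cyp1a2, a target of AHR, had -3.10 (SE 0.76). Cyp1a1, also a target of AHR, was not well above background on any of the 3 wild-type HCC arrays, 1 of them in doubt. Its level there was therefore replaced by the lowest signal well above background on each array, or the probe's own where that is higher. By this measure Cyp1a1 was 4.55-fold lower in wild-type HCC than in wild-type liver, where 2 of 3 arrays were well above background. The remaining liver array entered with its own reading, so this value is not a strict bound. In deleted against wild-type HCC the median was 0.95, with Cyp1a2 at 2.68 (SE 0.76), and for Cyp1a1 the bound was an at least 3.40-fold higher level after deletion, with all 3 deleted HCC arrays well above background. With the labels exchanged the medians were -1.43 and 0.58, and without both arrays in doubt -2.09 and 1.24. These comparisons share the wild-type HCC arrays.

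**Figure D4:**
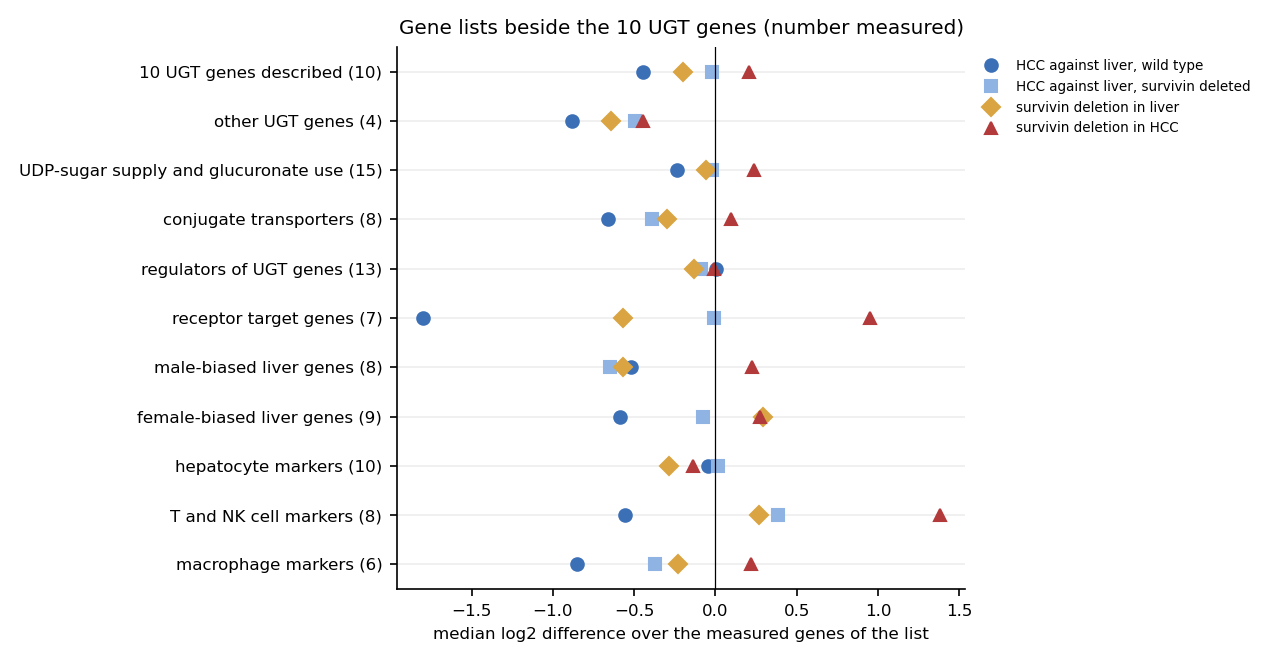
Median log2 difference over the measured genes of each list (number in brackets) for the 10 UGT genes and 10 other lists, in 4 comparisons marked by colour and shape. The UGT genes (-0.45), the other UGT genes (-0.88), the conjugate transporters (-0.66) and the receptor targets (-1.80) are below 0 in wild-type HCC against liver, where the hepatocyte markers are at -0.05.

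In bulk tissue, fewer cells of a type and less RNA per cell cannot be told apart, and other cell types moved in these samples. Hepatocyte markers had a median of -0.05 in wild-type HCC against liver, so the UGT median of -0.45 stood beside nearly level hepatocyte markers. Macrophage markers (6 of 6 lower, median -0.85) and T and NK cell markers (8 of 8 lower, median -0.56) were also lower there. So were B and plasma cell (5 of 5, -0.95), neutrophil (6 of 6, -0.58), erythroid (4 of 4, -0.26) and endothelial markers (5 of 5, -0.19). Of stellate and matrix markers 5 of 6 were lower (-0.15), while 4 of 5 cholangiocyte markers were higher (0.39). Exchanging the labels turned the endothelial (3 of 5 higher) and stellate lists (4 of 6 higher). A lower direction was thus not particular to the UGT genes, and the part of these cells was not tested. With the labels exchanged the hepatocyte markers were at -0.13 (9 of 10 lower), the macrophage markers stayed lower at -1.04 (6 of 6), and only 5 of 8 T and NK cell markers were lower (median -0.13). In deleted against wild-type HCC all 8 T and NK cell markers were higher, with a median of 1.38 (0.89 with the labels exchanged). As labelled, their mean level ran from -1.31 to -0.23 in deleted HCC against -3.12 to -1.43 in wild-type HCC. With the labels exchanged wild-type HCC replicate 1 read -0.09, above every deleted HCC array, so the groups then overlapped. All 8 T and NK cell markers were measured, 7 of them well above background on all 12 arrays.

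Sex-biased liver genes are a further set to which Ugt2b1 belongs. The mean over 8 male-biased genes was between 2.66 and 3.73 in wild-type liver and 1.96 and 3.00 in deleted liver. It spread from 0.77 to 3.41 in wild-type HCC and from -0.40 to 3.40 in deleted HCC, where the low array was replicate 2, the array of lowest Ugt2b1. The 3.41 was from an array in doubt. With the labels exchanged wild-type HCC ran from 0.77 to 1.96 and deleted liver from 2.09 to 3.41. The median difference of the male-biased genes in wild-type HCC was -0.52, with Cyp7b1, the oxysterol hydroxylase, at -1.81 (SE 0.85). That median was -0.63 with the labels exchanged and -0.50 without both arrays. In deleted against wild-type HCC the 9 female-biased genes had a median of 0.27, with 6 higher and 3 lower (lowest -0.51). The largest difference among them was that of Sult3a1, a sulfotransferase, which was 4.23 (SE 1.11, adjusted p = 0.548, limma) higher in deleted HCC. For Sult3a1 the difference was 3.22 with the labels exchanged and 4.06 without both arrays.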

How the data were processed

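The starting values were processed spot intensity values of 12 single-colour arrays, which the authors made with Agilent Feature Extraction (version 10.7 in the submitters' processing notes), with spatial and multiplicative detrending per the file headers. The deposited value table holds log2 values and was used only as an alternative. Signals were put on the log2 scale, spots averaged per probe, and each array's 75th percentile set to 0. A probe was kept if well above background on all 3 arrays of a group, and a gene was read from its brightest probe on average. limma 3.58.1 (R 4.3.3) fitted 4 group means with slide as a block (7 residual degrees of freedom), with Benjamini-Hochberg adjustment over 26286 genes at 0.05, checked on simulated data. Replicate numbers pair the arrays through the slide: all 18 correlations of deviations between same-numbered arrays were 0.280 to 0.737. The number of arrays limits the precision.

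The 10 genes and all lists were chosen with earlier results of these data known. Named are all 10 genes, all detected genes of the other UGT and UDP-sugar lists, up to 3 genes of smallest p per comparison from the other lists, and the 3 genes most like each member. Some genes that this rule names are not reported here. Motifs and their mismatch allowances were chosen after seeing the data. Alternatives were quantile normalization, normexp with an offset of 50, other filters, mean of all probes, no block, the replicate block, slide 2 only, trended robust variances, only the groups compared, the value table, exchanged or omitted doubtful arrays, and leaving out each array.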

Additional observations from a re-analysis of the deposited data

How the results depend on the processing

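No alternative brought any of the 10 genes past the adjusted threshold in any of the 5 comparisons (0 in all 129 alternative counts), where at most 2 of all genes passed. Of 1240 alternative values for single genes 94 changed sign, 5 of 250 in wild-type HCC against liver and 33 of 250 in deleted HCC against liver. The replicate block left the counts of lower genes as they were (3, 8, 10, 5 and 2 in the 5 comparisons) and gave 2 genes at an unadjusted p under 0.05 in HCC deletion and in wild-type HCC against liver, where Ugt2a3 and Ugt2b35 were added. The count of genes lower after deletion in HCC (3) was 6 on slide 2 only, 1 with the arrays in doubt exchanged, 1 with the value table, and 1 to 5 with single arrays left out (1 without deleted HCC replicate 2, 5 without deleted HCC replicate 1). In deleted HCC against deleted liver (5) it was 10 on slide 2 only, 10 without the arrays in doubt, and 1 to 10 with single arrays left out. For the interaction (2) it ran from 0 without deleted HCC replicate 2 to 4 without deleted HCC replicate 3, and for deletion in liver (8) from 5 without deleted liver replicate 1 to 9. In wild-type HCC against liver (10) it ran from 9 to 10. Genes at an unadjusted p under 0.05 rose from 1 to 6 in HCC deletion without deleted HCC replicate 2, and from 1 to 6 in wild-type HCC against liver when only the groups compared were fitted (4 without deleted HCC replicate 1 or 2). For the interaction they rose from 1 to 5 without deleted HCC replicate 2. The cause was not tested. The shares of all genes at an unadjusted p under 0.05 in these alternatives are not given here. The counts of UGT genes at that level are therefore not a result about these genes.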
